A study of Homo sapiens with 24 samples.

Results

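The 8 genes described here are the ERBB receptor tyrosine kinases EGFR, ERBB2 and ERBB3 and the EGF-family ligands AREG, EREG, HBEGF, TGFA and BTC out of 37967 genes in all. They were taken by symbol, 7 from the table of counts and TGFA from a second table of length-scaled counts that reaches further down the alphabet. All 8 were measured in every sample and passed into every test. RNA of HCT116 human colorectal carcinoma cells and of their oxaliplatin-resistant derivative, HCT116 oxpl-R, was sequenced in 8 groups of 3 samples, 24 samples in all. Both lines carry TetOn-E1A, a transgene for the adenovirus protein E1A that doxycycline switches on, so the untreated cells carry it too, and the resistant line was obtained by repeated pulses of oxaliplatin. In each line the groups were untreated (control), oxaliplatin at 25 µM for 24 h, doxycycline at 0.5 µg/mL (named E1A by the study), and doxycycline given 3 h before oxaliplatin (E1A + oxaliplatin). No line without the transgene was included, so effects of doxycycline and of E1A cannot be told apart. The labels call the samples of a group biological replicates, and p-values measure the spread between these samples. Summed counts ranged from 24838095 to 37927720 per sample.

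ERBB receptors sit in the plasma membrane and pair with one another when a ligand binds, which switches on their kinase domains and passes the signal through ERK and through PI3K. The ligands are made as membrane-bound precursors and are cut loose by ADAM proteases, so a cell can stimulate itself and its neighbours. In colorectal cancer AREG and EREG are known as abundant ligands of EGFR, and EGFR is the target of therapeutic antibodies.

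The transgene served as a check of the labels. Levels are given as CPM, the counts of a gene relative to the library total, scaled by the TMM normalization over all 24 samples. Ad5-E1A stood at 5.86, 4.74 and 4.07 CPM in the HCT116 controls and at 784, 752 and 814 CPM with doxycycline, and at 6.46, 7.66 and 8.32 CPM in the oxpl-R controls and 637, 587 and 831 CPM with doxycycline. Every doxycycline sample lay far above every sample without it, as labelled. Under oxaliplatin and doxycycline the HCT116 samples held 199, 537 and 494 CPM of Ad5-E1A, so replicate 1 of that group had less transgene RNA than its 2 partners. It also stood apart over all genes, with a mean chi-square of 211 and 239 per gene between its counts and those of its partners, which differed from each other by 20.7. HCT116 oxaliplatin replicate 3 (226 and 206, against 24.0 between its partners) and oxpl-R oxaliplatin replicate 1 (463 and 619, against 162) stood apart likewise. HCT116 E1A replicate 3 also lay further from its partners (61.7 and 53.5, against 10.6). The same held for oxpl-R E1A + oxaliplatin replicate 3 (144 and 93.8, against 33.2). Among the controls, HCT116 control replicate 3 differed from its partners by 31.1 and 42.7, against 13.5 between them. For oxpl-R control replicate 3 the values were 61.7 and 115, against 49.4. Some results on the 8 genes are also given without single libraries, and the gene lists are counted with all samples only. Untreated oxpl-R cells had a higher uninduced level than untreated HCT116 cells (log2FC 0.62 ± 0.19 SE, edgeR adjusted p = 0.0264). The epithelial label was checked with 9 epithelial markers, whose summed level was 5184 to 16402 CPM with KRT8 the most abundant, and 6 of the 9 averaged at least 1 CPM. KRT20, CDX1 and LGALS4, markers of differentiated colon epithelium, fell below that level. Markers of other cells were low, with 14.3 to 54.0 CPM for 5 fibroblast genes (mostly COL1A1), 1.06 to 7.02 CPM for 5 leukocyte genes (mostly CD68) and at most 0.912 CPM for 4 endothelial genes.

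The genes lie on 6 chromosomes of GRCh38. AREG (chr4:74445136-74455005), EREG (chr4:74365145-74388749) and BTC (chr4:74744759-74794523, minus strand) form a cluster with EPGN on chromosome 4. HBEGF lies at chr5:140332843-140346603 and TGFA at chr2:70447284-70554193, both on the minus strand. The receptors are at chr7:55019017-55211628 (EGFR), chr17:39687914-39730426 (ERBB2) and chr12:56076799-56103505 (ERBB3), all on the plus strand. All are protein-coding genes in the annotation.

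Promoters from RefSeq (GRCh38.p14, 250 bases before to 50 after the start, shown in the direction of transcription) were found for 7 of the 8 genes. ERBB3 is named only. Those of AREG, EREG, HBEGF and TGFA are printed. They are the 4 ligands whose difference between the untreated lines was called under all 14 alternatives. For TGFA the length-scaled table among these is the main fit itself. AREG and EREG were lower and HBEGF and TGFA higher in oxpl-R cells. Capitals mark matches to the letters of 4 motifs searched on both strands. AP-1 was searched as TGAGTCA and the cAMP response element as TGACGTCA. The E-box was searched as CACGTG. The TATA box was searched as TATAAA. The windows are chr4:74444886-74445185 (plus strand) for AREG, chr4:74364895-74365194 (plus strand) for EREG, chr5:140346554-140346853 (minus strand) for HBEGF and chr2:70553777-70554076 (minus strand) for the upstream one of 2 TGFA promoters.
AREG: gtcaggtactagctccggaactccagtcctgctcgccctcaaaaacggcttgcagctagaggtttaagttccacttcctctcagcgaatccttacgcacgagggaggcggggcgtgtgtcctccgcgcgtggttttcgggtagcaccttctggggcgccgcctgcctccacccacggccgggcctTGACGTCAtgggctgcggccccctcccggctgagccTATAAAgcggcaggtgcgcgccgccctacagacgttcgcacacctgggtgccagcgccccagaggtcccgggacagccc
EREG: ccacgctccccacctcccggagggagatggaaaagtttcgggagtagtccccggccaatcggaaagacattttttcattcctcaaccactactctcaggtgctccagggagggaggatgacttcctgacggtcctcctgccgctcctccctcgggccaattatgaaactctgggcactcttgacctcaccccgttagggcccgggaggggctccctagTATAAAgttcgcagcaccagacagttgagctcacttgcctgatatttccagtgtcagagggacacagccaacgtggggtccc
HBEGF: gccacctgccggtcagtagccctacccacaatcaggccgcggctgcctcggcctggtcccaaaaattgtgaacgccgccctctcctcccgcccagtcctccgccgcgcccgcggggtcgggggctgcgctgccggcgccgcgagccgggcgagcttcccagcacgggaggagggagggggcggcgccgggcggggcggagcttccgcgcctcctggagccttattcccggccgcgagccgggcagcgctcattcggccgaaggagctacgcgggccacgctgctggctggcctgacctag
TGFA: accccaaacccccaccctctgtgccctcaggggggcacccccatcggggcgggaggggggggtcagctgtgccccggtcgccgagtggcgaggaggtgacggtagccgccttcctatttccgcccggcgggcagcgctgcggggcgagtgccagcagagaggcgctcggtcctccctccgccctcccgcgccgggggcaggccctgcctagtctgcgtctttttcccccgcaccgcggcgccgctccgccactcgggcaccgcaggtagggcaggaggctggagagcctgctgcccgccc
The AREG window held TGACGTCA 65 bases and TATAAA 29 bases before the start, and the EREG window held TATAAA 32 bases before it. The HBEGF and both TGFA windows held none of the 4 letter strings, nor did those of BTC, ERBB2 and the first EGFR promoter. A downstream EGFR promoter held TGAGTCA or its reverse complement 232 and 136 bases before the start and TATAAA 146 and 36 bases before it. No match overlapped another. Over all 35116 promoters of this length, 4.95% held TGAGTCA, 1.85% TGACGTCA, 7.26% CACGTG and 11.5% TATAAA on either strand. These matches describe the windows only and do not show a bound factor.

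Compared per length, AREG and EREG were the leading ligands of HCT116 cells. Levels between genes were set on one scale by dividing the CPM of the length-scaled table by the total exon length of each gene. Untreated HCT116 cells had 306 ± 22.5 (SD, n = 3) CPM per kb of AREG, the ligand amphiregulin, and 104.8 ± 8.39 CPM per kb of EREG, epiregulin. ERBB2, the receptor with no known ligand of its own, followed with 12.7 ± 1.81 and TGFA, transforming growth factor alpha, with 10.7 ± 0.906 CPM per kb. EGFR stood at 4.39 ± 0.148, HBEGF, heparin-binding EGF-like growth factor, at 2.93 ± 0.142, ERBB3, a receptor with an impaired kinase, at 2.48 ± 0.198 and BTC, betacellulin, at 1.68 ± 0.334 CPM per kb. The 3 samples of each gene did not overlap those of the next in this order. Divided by the length of the longest transcript instead, ERBB3 stood above HBEGF and the rest of the order held.

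The order changed in the resistant line. In untreated oxpl-R cells TGFA, at 27.5 ± 1.79 CPM per kb, stood above ERBB2 at 11.2 ± 0.684 and HBEGF, at 5.28 ± 0.389, above EGFR at 3.52 ± 0.491, while EGFR, BTC and ERBB3 overlapped their neighbours in the order. Under oxaliplatin, TGFA (45.9 ± 4.61 CPM per kb) and EREG (45.8 ± 15.2 CPM per kb) overlapped below AREG (170.4 ± 13.2 CPM per kb). The summed level of the 5 ligands was 426.1 ± 31.997 CPM per kb in untreated HCT116 and 227 ± 24.2 in untreated oxpl-R cells. HBEGF and TGFA together made up 3.21% ± 0.0786 of that sum in untreated HCT116 cells and 14.5% ± 1.06 in untreated oxpl-R cells, and under oxaliplatin 7.33% ± 0.958 and 20.7% ± 1.41 (SD, n = 3). These shares are given as a description, and all 12 oxpl-R samples lay above all 12 HCT116 samples. They are built from the same levels as the single-gene differences given below and are not separate support for them.

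**Figure D1:**
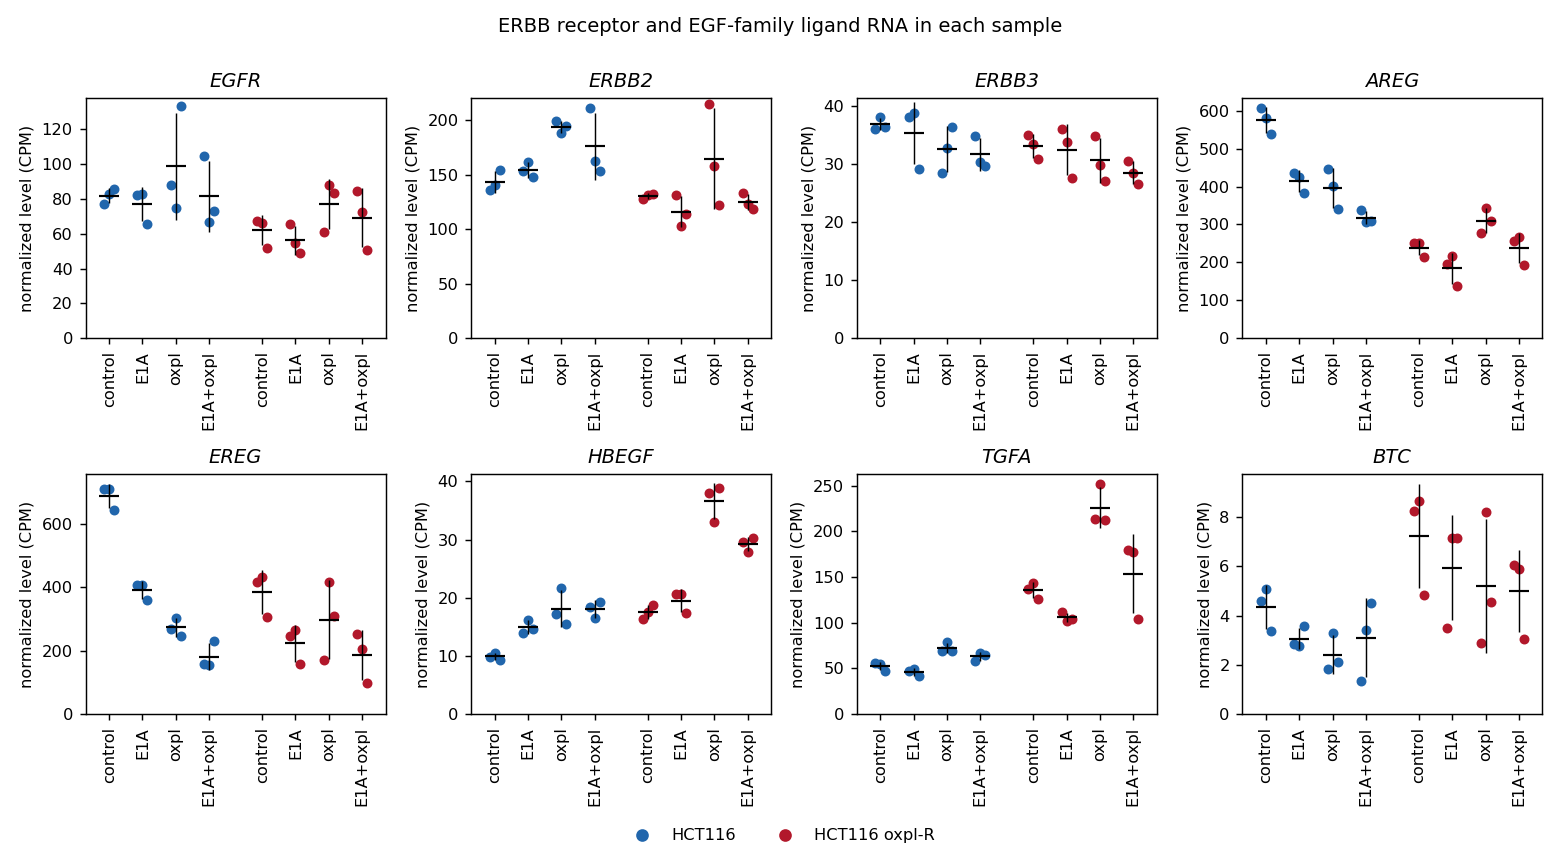
Normalized level (CPM, linear axis from 0) of the 3 receptors and 5 ligands in each of the 24 samples, with points for samples, horizontal lines for group means and vertical lines for SD (n = 3); HCT116 is blue and HCT116 oxpl-R red, and oxpl marks oxaliplatin. AREG and EREG are highest in untreated HCT116 cells, and HBEGF and TGFA are highest in oxpl-R cells under oxaliplatin.

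The first comparison asked how untreated resistant cells differ from untreated parental cells. AREG and EREG were lower in oxpl-R cells and HBEGF, TGFA and BTC were higher, while EGFR was slightly lower. By edgeR's quasi-likelihood test with Benjamini-Hochberg adjustment, 6 of the 8 genes were past an adjusted p of 0.05, against 28.3% of the 16715 genes tested in the count table (24.1% in the length-scaled table, on which TGFA was tested). For 7 of the 8 genes the ranges of the 2 lines were apart, against 40.7% of all genes (38.1% in the length-scaled table). The median log2FC of the 8 genes was -0.14 and that of all genes tested 0.08.

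AREG held 606, 580.1 and 538 CPM in the HCT116 controls and 251, 252 and 215 CPM in the oxpl-R controls. All resistant samples were below all parental samples. The difference was 2.39-fold (log2FC -1.26 ± 0.12 SE, edgeR adjusted p = 5.32e-06). EREG held 711, 709 and 644 CPM against 417, 433 and 305 CPM, again without overlap, and was 1.77-fold lower (log2FC -0.83 ± 0.14 SE, edgeR adjusted p = 0.000681). Both stayed past the threshold under all 14 alternatives. In bulk RNA, fewer cells expressing a gene and less RNA per cell cannot be told apart.

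TGFA moved the other way, with 55.8, 54.9 and 47.7 CPM in the HCT116 controls and 137, 143 and 126 CPM in the oxpl-R controls. The resistant samples were all far higher, by 2.56-fold (log2FC 1.36 ± 0.12 SE, edgeR adjusted p = 3.67e-06). HBEGF held 9.91, 10.5 and 9.39 CPM against 16.4, 17.6 and 18.8 CPM, with no overlap and a 1.78-fold difference (log2FC 0.84 ± 0.14 SE, edgeR adjusted p = 0.000765). These calls too held under all 14 alternatives. For TGFA the length-scaled table among these is the main fit itself and adds nothing. BTC, the least abundant of the ligands, had 4.59, 5.07 and 3.35 CPM against 8.23, 8.66 and 4.82 CPM, so replicate 3 of the resistant line lay within the parental range. Its log2FC of 0.74 ± 0.24 SE had an edgeR adjusted p of 0.0348, and leaving out HCT116 replicate 1 or 3 or oxpl-R replicate 1 or 2 raised it to between 0.0529 and 0.151. In the length-scaled table BTC had a log2FC of 0.44 (edgeR adjusted p = 0.331). In all, the BTC call was lost under 8 of the 14 alternatives.

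The receptors differed less than the ligands. EGFR had 77.1, 82.9 and 85.5 CPM in the HCT116 controls and 67.2, 66.4 and 51.9 CPM in the oxpl-R controls, with no overlap. Its log2FC was -0.39 ± 0.12 SE (edgeR adjusted p = 0.0299). The adjusted p rose to between 0.0658 and 0.103 without any single HCT116 control or without oxpl-R control replicate 3. In the length-scaled table it was 0.0993, and in all the EGFR call was lost under 9 of the 14 alternatives. ERBB2, with 136, 140.4 and 155 CPM against 128, 132 and 132 CPM, and ERBB3, with 36.1, 38.05 and 36.4 CPM against 34.9, 33.4 and 30.9 CPM, were lower in every resistant sample by small margins. Their log2FC values of -0.13 ± 0.10 and -0.15 ± 0.12 SE did not pass the test (edgeR adjusted p = 0.396 and 0.406).

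The 4 family members of the chromosome 4 cluster differed between the untreated lines in opposite directions. EPGN, the gene of the ligand epigen, starts 137 kb before AREG and had 60, 47 and 89 counts in the oxpl-R controls against 4, 4 and 1 counts in the HCT116 controls. EREG and AREG, the next genes, were lower in oxpl-R cells and BTC, 299.6 kb beyond the AREG start, was higher. Of the 7 other genes tested within 1 Mb of AREG and with at least 10 counts on average, none passed the test, and their log2FC ran from -0.77 (LINC02562) to 1.11 (CXCL8). The median log2FC of the 455 tested genes of chromosome 4 was -0.26, that of chromosome 2, which holds TGFA, was -0.28 and that of chromosome 5, which holds HBEGF, was 0.17, against -0.02 over all 12898 genes with a position and at least 10 counts on average.

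**Figure D2:**
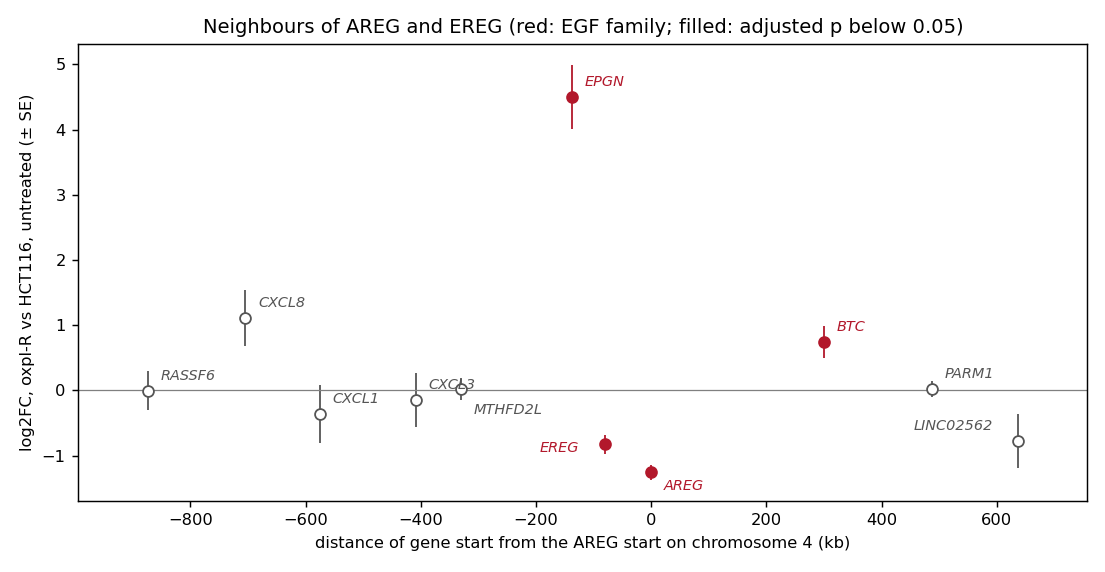
Log2 fold change (± SE) of untreated HCT116 oxpl-R against untreated HCT116 cells for the genes tested within 1 Mb of AREG, by the distance of the gene start from the AREG start in kb; EGF-family genes are red, and filled points have an adjusted p below 0.05. EPGN and BTC lie above 0 and EREG and AREG below it.

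The second comparison asked what 24 h of oxaliplatin did in each line. In HCT116 cells EREG and AREG fell and HBEGF, TGFA and ERBB2 rose, 5 of the 8 genes against 23.3% of all 16135 genes tested (21.1% in the length-scaled table). In oxpl-R cells HBEGF and TGFA rose, 2 of the 8 against 4.12% of 16805 genes (4.28% in the length-scaled table). Without HCT116 oxaliplatin replicate 3, which stands apart, 6 of the 8 genes were called (BTC in addition, lower, edgeR adjusted p = 0.0355), against 44.2% of the genes tested. Without oxpl-R oxaliplatin replicate 1 the count was 2 of the 8, against 4.65%. The median log2FC of the 8 genes was 0.12 in HCT116 and 0.34 in oxpl-R cells, and that of all genes 0.02 and 0.00. Both responses use the untreated samples of the first comparison.

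HBEGF went from 9.91, 10.5 and 9.39 CPM to 17.2, 21.7 and 15.6 CPM in HCT116 cells, and from 16.4, 17.6 and 18.8 CPM to 37.98, 33.03 and 38.8 CPM in oxpl-R cells. In both lines every treated sample was above every control. It rose 1.93-fold in HCT116 (log2FC 0.95 ± 0.19 SE, edgeR adjusted p = 0.00689) and 2.09-fold in oxpl-R cells (log2FC 1.06 ± 0.20 SE, edgeR adjusted p = 0.00998, or 0.0774 without oxpl-R control replicate 1). TGFA reached 69.7, 78.7 and 69.4 CPM in treated HCT116 cells and 214, 252 and 212 CPM in treated oxpl-R cells, above all controls of the same line. It rose 1.42-fold (log2FC 0.50 ± 0.14 SE, edgeR adjusted p = 0.0289) and 1.67-fold (log2FC 0.74 ± 0.17 SE, edgeR adjusted p = 0.0278). Neither TGFA call survived every omission: leaving out any HCT116 control or oxaliplatin replicate 1 or 2 gave 0.081 to 0.14 in HCT116, and leaving out any oxpl-R control or oxaliplatin replicate 2 gave 0.089 to 0.13 in oxpl-R cells.

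EREG fell 2.38-fold in HCT116 cells, to 269, 305 and 248 CPM (log2FC -1.25 ± 0.13 SE, edgeR adjusted p = 0.000586), a call that held under all 14 alternatives. In oxpl-R cells the treated samples held 169.8, 417 and 309.5 CPM. Only replicate 1, the library that stands apart, was clearly below the range of the controls. The log2FC was -0.36 ± 0.28 SE (edgeR adjusted p = 0.596), and -0.659 to -0.0857 with single libraries left out. AREG went to 445, 400.2 and 341 CPM in HCT116 cells, below all 3 controls (log2FC -0.46 ± 0.14 SE, edgeR adjusted p = 0.0373). In oxpl-R cells AREG was at 279, 343 and 309 CPM, above all 3 controls, with a log2FC of 0.38 ± 0.18 SE (edgeR adjusted p = 0.338). The AREG call in HCT116 cells was lost without any one of the controls or without oxaliplatin replicate 2 (adjusted p 0.0544 to 0.162).

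The difference between the lines in these responses was tested as an interaction over the 12 samples. It was 0.86 ± 0.23 SE on the log2 scale for AREG (edgeR adjusted p = 0.0546) and 0.91 ± 0.34 SE for EREG (edgeR adjusted p = 0.171), so the edgeR test called 0 of the 8 genes, against 2.44% of 17876 genes (3.17% in the length-scaled table). Of the 8 genes, 2 had an unadjusted p below 0.05, against 15.9% of all genes, and DESeq2 called 1, AREG (adjusted p = 0.00469), against 7.29% of all genes. Leaving out replicate 1 of the oxaliplatin-treated oxpl-R cells, in which 30.4% of values are not whole numbers (25.3% in replicate 3 of that group and 15.9% to 20.8% in the other samples), gave adjusted p values of 0.0141 for AREG and 0.00919 for EREG, and leaving out HCT116 oxaliplatin replicate 3 gave 0.0353 for AREG. HBEGF and TGFA had interactions of 0.13 ± 0.27 and 0.28 ± 0.21 SE (edgeR adjusted p = 0.979 and 0.561).

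The balance of these ligands is given as a description. AREG counts divided by EREG counts were 0.818 to 0.854 in HCT116 controls and 1.31 to 1.66 under oxaliplatin. In oxpl-R cells the ratio was 0.581 to 0.704 in controls and 0.823 to 1.64 under oxaliplatin. All treated samples were above the controls of their line, and with doxycycline alone the ratio was 1.05 to 1.06 in HCT116 and 0.794 to 0.872 in oxpl-R cells.

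**Figure D3:**
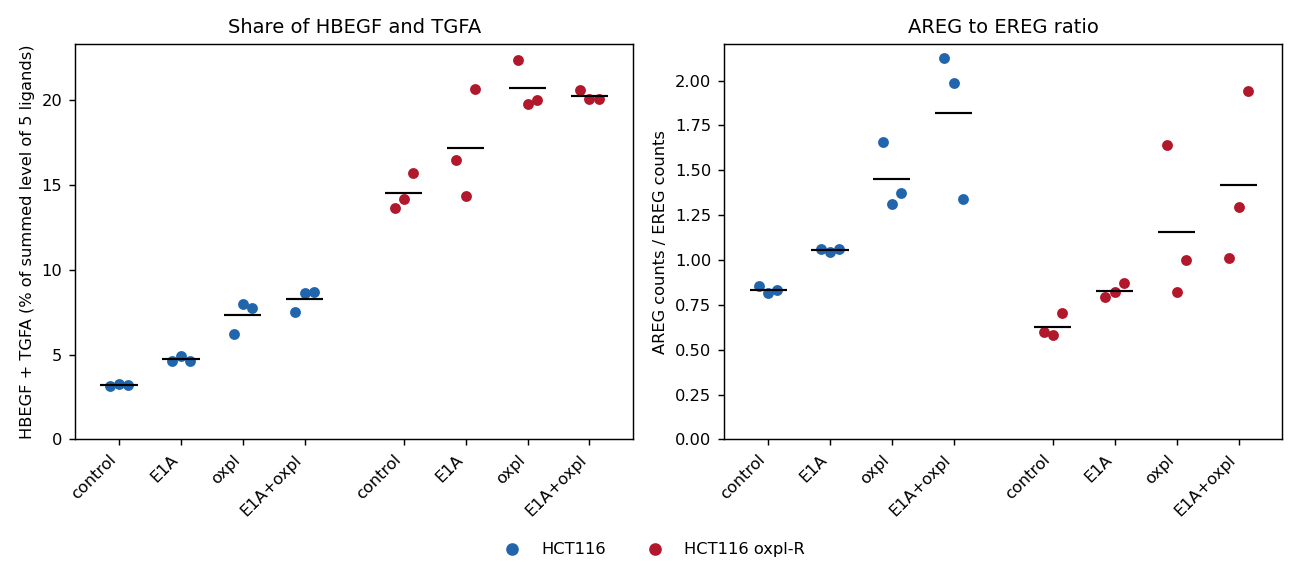
Left, HBEGF and TGFA as a percentage of the summed per-length level of the 5 ligands; right, AREG counts divided by EREG counts; points are the 3 samples of each group and lines group means, with HCT116 in blue and HCT116 oxpl-R in red. The HBEGF and TGFA share is 3.14% to 8.67% in HCT116 samples and 13.7% to 22.3% in oxpl-R samples.

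Among the receptors, ERBB2 rose with oxaliplatin in HCT116 cells, from 136, 140.4 and 155 CPM to 199, 188 and 194 CPM. The treated samples were all higher (log2FC 0.51 ± 0.12 SE, edgeR adjusted p = 0.0133), and the adjusted p was 0.0552 to 0.0891 without HCT116 control replicate 1 or 2 or oxaliplatin replicate 1 and 0.0689 in the length-scaled table. In oxpl-R cells the treated samples spread from 122 to 215 CPM around controls of 128 to 132 CPM (log2FC 0.34 ± 0.22 SE, edgeR adjusted p = 0.502). The highest was replicate 1, which stands apart, and leaving out single libraries gave log2FC values from 0.0972 to 0.472. EGFR reached 87.8, 74.9 and 133 CPM in treated HCT116 cells, where replicate 3 alone, the library that stands apart, was well above the controls (log2FC 0.35 ± 0.20 SE, edgeR adjusted p = 0.263, and a log2FC of 0.03 without it). ERBB3 had a log2FC of -0.10 ± 0.15 SE in the count table (edgeR adjusted p = 0.638) and 0.40 in the length-scaled table, so its direction depended on the table used.

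With oxaliplatin in both lines, TGFA and HBEGF were higher in oxpl-R cells. TGFA was 3.07-fold higher in oxpl-R cells (log2FC 1.62 ± 0.20 SE, edgeR adjusted p = 0.000245) and HBEGF 1.903-fold (log2FC 0.93 ± 0.25 SE, edgeR adjusted p = 0.0184, or 0.0652 without HCT116 oxaliplatin replicate 1). They were the only 2 of the 8 genes called, against 20.7% of 16342 genes (21.5% in the length-scaled table), and the only ones whose ranges were apart, against 35.9% (36.9% in the length-scaled table). AREG had a log2FC of -0.44 ± 0.22 SE (edgeR adjusted p = 0.203) and EREG one of 0.04 ± 0.29 SE (edgeR adjusted p = 0.95). Whether these values differ from those of the untreated lines is the interaction given for AREG and EREG, which did not pass the edgeR threshold. The sign of the EREG value changed when single libraries were left out (-0.25 to 0.32). In this comparison the deviations of same-numbered samples from the group means had an r of 0.141, 0.188 and 0.253. With the replicate number as a block BTC was also called (log2FC 0.94, edgeR adjusted p = 0.0391, against 1.01 and 0.104 without the block). BTC was called as well without HCT116 oxaliplatin replicate 2 (adjusted p = 0.0438) and without oxpl-R oxaliplatin replicate 1 (adjusted p = 0.0426). ERBB3 had a log2FC of -0.18 ± 0.24 SE (edgeR adjusted p = 0.613) in the count table and -0.60 in the length-scaled table (edgeR adjusted p = 0.064, or 0.0453 and 0.0451 by limma with the larger and the smaller pseudocount).

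**Figure D4:**
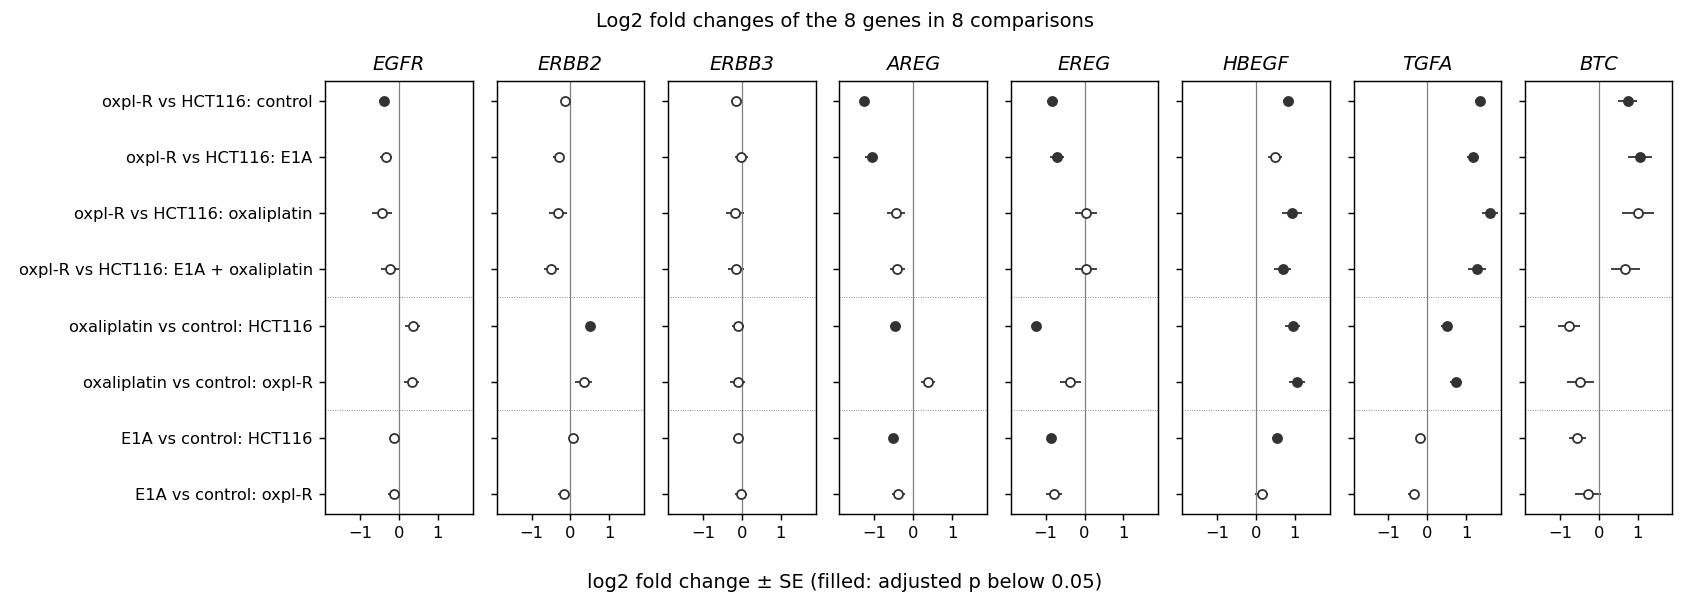
Log2 fold changes (± SE) of the 8 genes between the lines in the 4 conditions, with oxaliplatin in each line and with doxycycline (E1A) in each line; filled points have an adjusted p below 0.05. TGFA is filled in all 4 line comparisons, and HBEGF and TGFA are filled in both oxaliplatin responses.

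The third comparison asked what induction of E1A did. In HCT116 cells AREG and EREG fell and HBEGF rose, 3 of the 8 genes against 9.5% of 16416 genes (5.22% in the length-scaled table), and the median log2FC was -0.16 against 0.01 for all genes. EREG held 409, 407 and 360.2 CPM with doxycycline against 711, 709 and 644 CPM without it, with no overlap (log2FC -0.86 ± 0.10 SE, edgeR adjusted p = 1.25e-05). AREG held 435, 426 and 383 CPM against 606, 580.1 and 538 CPM, again all lower (log2FC -0.52 ± 0.10 SE, edgeR adjusted p = 0.00259, or 0.0519 without HCT116 control replicate 1). HBEGF held 13.9, 16.2 and 14.6 CPM against 9.91, 10.5 and 9.39 CPM, all higher (log2FC 0.54 ± 0.14 SE, edgeR adjusted p = 0.0139, or 0.0881 without HCT116 control replicate 1 and 0.053 without E1A replicate 2). With all 24 samples in one fit, 0 of the 8 genes passed. In all, the HBEGF call was lost under 7 of the 14 alternatives and the AREG call under 3.

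In oxpl-R cells the edgeR test called 0 of the 8 genes with doxycycline, against 0.0755% of 17212 genes (0.0593% in the length-scaled table), DESeq2 called 0 as well, and 2 had an unadjusted p below 0.05, against 5.52% of all genes. EREG did not pass the test (log2FC -0.79 ± 0.21 SE, edgeR adjusted p = 0.46). It held 247, 265 and 158 CPM, below its controls of 417, 433 and 305 CPM in all 3 samples. TGFA, the other gene with an unadjusted p below 0.05, did not pass either (log2FC -0.36 ± 0.13 SE, edgeR adjusted p = 0.811). It held 111, 102 and 104 CPM, all below its controls of 137, 143 and 126 CPM. The share of all genes without overlap was not counted for this comparison, so these ranges are a description only. AREG held 197, 218 and 138 CPM, of which replicate 2 lay within the range of the controls (log2FC -0.38 ± 0.17 SE, edgeR adjusted p = 0.805). The difference between the lines in the response to doxycycline was 0.05 ± 0.25 SE for EREG, 0.12 ± 0.22 SE for AREG and -0.42 ± 0.23 SE for HBEGF, and edgeR and DESeq2 called 0 of the 8 genes, against 0.0164% of 18264 genes by edgeR (0.00466% in the length-scaled table). At an unadjusted p below 0.05 there were 0 of the 8, against 2.34% of all genes.

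With doxycycline in both lines, AREG was lower in oxpl-R cells (log2FC -1.07 ± 0.17 SE, edgeR adjusted p = 0.00125), as was EREG (log2FC -0.71 ± 0.18 SE, edgeR adjusted p = 0.0165, or 0.074 and 0.0758 without HCT116 E1A replicate 1 or 2). TGFA, at 47.7, 48.97 and 41.3 CPM in HCT116 and 111, 102 and 104 CPM in oxpl-R cells, was 2.25-fold higher in the resistant line (log2FC 1.17 ± 0.15 SE, edgeR adjusted p = 0.000194). BTC was higher by a log2FC of 1.07 ± 0.31 SE (edgeR adjusted p = 0.0316, or 0.0508 to 0.118 without any HCT116 E1A sample or oxpl-R E1A replicate 2, and 0.0569 in the length-scaled table). These are 4 of the 8 genes, against 17.7% of 17205 genes (15.9% in the length-scaled table).

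With both treatments, TGFA (log2FC 1.27 ± 0.23 SE, edgeR adjusted p = 0.00294) and HBEGF (log2FC 0.69 ± 0.22 SE, edgeR adjusted p = 0.0362) were higher in oxpl-R cells, 2 of the 8 genes against 18.5% of 16904 genes (14.4% in the length-scaled table). Without HCT116 replicate 1, the library with less Ad5-E1A than its partners, they were 1.19 (adjusted p = 0.00265) and 0.71 (adjusted p = 0.0153). HBEGF was lost without replicate 2 or 3 of HCT116 or replicate 1 or 2 of oxpl-R (adjusted p 0.073 to 0.176), with RLE scaling (0.0536) and in the length-scaled table (0.0503). AREG, at 337, 307 and 308 CPM in HCT116 and 256, 266 and 193 CPM in oxpl-R cells, was lower in all resistant samples but did not pass the test (log2FC -0.41 ± 0.19 SE, edgeR adjusted p = 0.158). The same held for ERBB2 (log2FC -0.49 ± 0.19 SE, edgeR adjusted p = 0.0921), which was called under 1 of the 14 alternatives. EREG had a log2FC of 0.04 (edgeR adjusted p = 0.944), which was negative without HCT116 replicate 1 or 2 or oxpl-R replicate 1 or 2 (-0.27 at the lowest).

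Oxaliplatin on top of doxycycline lowered EREG in HCT116 cells, from 409, 407 and 360.2 CPM to 159, 155 and 230.3 CPM, with no overlap (log2FC -1.04 ± 0.18 SE, edgeR adjusted p = 0.00297). It was 1 of the 8 genes called, against 10.0% of 16595 genes (7.63% in the length-scaled table). Without HCT116 replicate 1, which had less Ad5-E1A than its partners, 3 of the 8 were called, against 29.8% of the genes tested. They were EREG, AREG (log2FC -0.38, adjusted p = 0.00911, against -0.30 ± 0.16 SE and 0.294 with it) and TGFA (log2FC 0.52, adjusted p = 0.00499, against 0.40 ± 0.16 SE and 0.171 with it). That library also held the highest EGFR and ERBB2 levels of its group, 105 against 66.9 and 72.9 CPM and 211 against 163 and 154 CPM, and its part in the results was not tested further. In oxpl-R cells the same treatment called 0 of the 8 genes by edgeR and DESeq2, against 2.06% of 17296 genes by edgeR (1.96% in the length-scaled table), and 2 had an unadjusted p below 0.05, against 12.4%. Same-numbered samples shared their deviations there, and the block raised the genes called from 357 to 1766 with still 0 of the 8. TGFA passed without oxpl-R replicate 3 of the double treatment (log2FC 0.74, adjusted p = 0.0448, against 0.51 ± 0.21 SE and 0.302 with it).

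Doxycycline on top of oxaliplatin gave 0 of the 8 genes by edgeR and DESeq2 in either line, against 0.0246% of 16259 and 0.638% of 16773 genes by edgeR (0.0209% and 0.634% in the length-scaled table). At an unadjusted p below 0.05 there were 1 in HCT116 cells, against 1.88% of all genes, and 2 in oxpl-R cells, against 8.14%. Without the HCT116 library with less Ad5-E1A than its partners the count was 0 as well. TGFA in oxpl-R cells went from 214, 252 and 212 CPM to 179.9, 177 and 104 CPM, all lower, with a log2FC of -0.56 ± 0.22 SE (edgeR adjusted p = 0.432). Omission of single libraries gave TGFA values from -0.685 to -0.339. EREG had a log2FC of -0.60 ± 0.20 SE in HCT116 cells (edgeR adjusted p = 1.00) and -0.69 ± 0.33 SE in oxpl-R cells (edgeR adjusted p = 0.604). Its oxpl-R value ran from -0.99 to -0.38 with single libraries left out. The interaction of the treatments called 0 of the 8 genes in either line by edgeR and DESeq2, against 0.0% of 17632 and 18350 genes by edgeR (0.0% and 0.00464% in the length-scaled table). At an unadjusted p below 0.05 there were 1 in HCT116 cells, against 4.68% of all genes, and 0 in oxpl-R cells, against 2.57%. Without that HCT116 library 527 genes passed the interaction test in HCT116 cells, still 0 of the 8 among them.

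The rest of the family was scarce. ERBB4, the fourth receptor, had 0 to 7 counts in any sample, NRG3 had 0 to 5 and EGF itself 2 to 26. Of the 7 further family genes, 3 were higher and 0 lower in untreated oxpl-R cells, against 28.3% of all genes called: NRG1 and NRG2, neuregulins, and EPGN. NRG1 had 84, 177 and 93 counts in the oxpl-R controls and 0, 10 and 1 in the HCT116 controls, and NRG2 had 95, 130 and 139 against 18, 21 and 33. The resistant samples were higher throughout (NRG1 log2FC 5.06 ± 0.62, EPGN 4.503 ± 0.49, NRG2 2.43 ± 0.28 SE, edgeR adjusted p = 6.03e-05, 2.17e-05 and 3.18e-05), and the first 2 values rest on few counts in HCT116. NRG4 fell with oxaliplatin in HCT116 cells, from 69, 97 and 49 to 23, 34 and 22 counts (log2FC -1.33 ± 0.35 SE, edgeR adjusted p = 0.0217). The 7 genes had a median log2FC of 2.43 between the untreated lines, against 0.08 for all genes. This median includes NRG3, whose only counts in untreated cells were 5 in oxpl-R replicate 3. It is therefore not read as a shift of the family.

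Of 9 ligand shedding genes, 4 rose and 1 fell with oxaliplatin in HCT116 cells, where 23.3% of all genes were called (median log2FC 0.58 against 0.02 for all genes). That share was 44.2% without HCT116 oxaliplatin replicate 3, which stands apart, and the list was counted only with that library. RHBDF1, an inactive rhomboid that helps the sheddase ADAM17 mature, went from 14.5 ± 1.27 to 26.8 ± 1.78 CPM (log2FC 0.96 ± 0.16 SE, edgeR adjusted p = 0.00353) and FRMD8, its binding partner, from 93.8 ± 11.1 to 160.0 ± 7.63 CPM (log2FC 0.85 ± 0.13 SE, edgeR adjusted p = 0.00246). ADAM9, a metalloprotease, fell (log2FC -1.03 ± 0.27 SE, edgeR adjusted p = 0.0238). In oxpl-R cells RHBDF1 rose as well, the 1 list gene called against 4.12% of all genes (log2FC 0.99 ± 0.22 SE, edgeR adjusted p = 0.0247). Between the untreated lines TIMP3, an inhibitor of the sheddases, was higher in oxpl-R cells at 25.2 ± 1.04 against 9.25 ± 0.748 CPM (log2FC 1.44 ± 0.16 SE, edgeR adjusted p = 2.36e-05), with FRMD8 lower.

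Genes that restrain the receptors included ERRFI1, a feedback inhibitor that binds the EGFR kinase. It was lower in untreated oxpl-R cells, 284 ± 67.7 against 598 ± 19.8 CPM (log2FC -1.07 ± 0.16 SE, edgeR adjusted p = 0.000223), 1 of 2 list genes called, with CBL, a ubiquitin ligase for EGFR. These 2 of 11 genes stand against 28.3% of all genes called, and the median log2FC of the list was 0.05 against 0.08 for all genes. ERRFI1 also fell with oxaliplatin (log2FC -0.71 ± 0.12 SE) and with doxycycline (log2FC -0.55 ± 0.10 SE) in HCT116 cells. In the list of 23 proximal signalling genes, 3 were higher and 7 lower in untreated oxpl-R cells (median log2FC -0.27 against 0.08 for all genes), 10 of 23 against 28.3% of all genes. SHC1, an adaptor that binds the activated receptors, was at 103 ± 4.75 against 242 ± 18.7 CPM (log2FC -1.23 ± 0.11 SE, edgeR adjusted p = 5.77e-06), and PIK3R1, a regulatory PI3K subunit, was higher (log2FC 1.30 ± 0.15 SE, edgeR adjusted p = 3.37e-05).

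Genes that ERK signalling is known to induce moved both ways. Of 16, 5 were higher and 7 lower in untreated oxpl-R cells, where 28.3% of all genes were called (median log2FC -0.34 against 0.08 for all genes). EGR1, an immediate early transcription factor, was at 32.7 ± 3.47 against 125 ± 7.47 CPM (log2FC -1.93 ± 0.12 SE, edgeR adjusted p = 1.40e-07), and SPRY4, a feedback inhibitor, was lower too (log2FC -1.46 ± 0.12 SE). EPHA4, an ephrin receptor, was higher (log2FC 1.51 ± 0.17 SE), as was FOSL1, a component of AP-1 (log2FC 0.97 ± 0.12 SE). With oxaliplatin EPHA2, another ephrin receptor, rose in both lines (log2FC 1.18 ± 0.12 in HCT116 and 0.99 ± 0.20 SE in oxpl-R cells), as did DUSP5, a phosphatase of ERK (log2FC 0.78 ± 0.12 and 0.96 ± 0.20 SE). EGR1 fell with oxaliplatin in HCT116 cells (log2FC -0.96 ± 0.14 SE) and rose with doxycycline in both lines (log2FC 1.85 ± 0.11 and 2.34 ± 0.20 SE). Of the 16 genes, 5 rose and 2 fell with oxaliplatin in HCT116 cells, against 23.3% of all genes called, and 2 rose in oxpl-R cells, against 4.12%. The HCT116 share was 44.2% without oxaliplatin replicate 3, which stands apart, and the list was counted only with that library.

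The genes whose levels followed each member most closely over the 24 samples were listed as a description, by Pearson's r of log2(CPM + 1) among 11090 genes (13365 for TGFA). TGFA was nearest to PLK2 (r = 0.978), CYP4F3 and TMEM139, and HBEGF to NTPCR (r = 0.95), CYB5R1 and CD82. AREG was nearest to FRMD5 (r = 0.938), GNAI1 and NR2F2, EREG to MAN1A1 (r = 0.932), RASSF3 and ME1, and BTC to RAP2A (r = 0.931), CDK7 and RMDN2. Among the receptors, EGFR was nearest to PCNX2 (r = 0.904), ERBB2 to PTCD1 (r = 0.969) and ERBB3 to KDM3B (r = 0.894). Within the set, HBEGF and TGFA had an r of 0.82 and AREG and EREG one of 0.68, and the most negative r was -0.72, between ERBB2 and BTC. The samples share groups of 3 and the 2 cell lines, so these values carry the differences already described.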

How the data were processed

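RNA was sequenced from 24 samples, 3 in each of 8 groups of cell line and treatment. The authors trimmed reads with Trimmomatic, quantified them with Salmon 1.6.0 on GENCODE 47 (GRCh38) and deposited estimated counts per gene, which need not be whole. A second table the authors deposited is named for TPM, but its values sum to 28004261 to 42613322 per sample, so it was read as length-scaled estimated counts. It was tested as counts and not on the log scale that had been planned, which was kept as an alternative. The tables hold 33113 genes (to SETP6) and 37967 genes (to TSC22D3) in alphabetical order, and later genes were not analysed here. The last line of each was cut off and left out. The lowest r of log2 values between the tables in any sample was 0.993. It was taken over the well-counted ones of the 33113 shared genes, with genes of few counts left out.

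Counts were rounded and compared with edgeR 4.0.16 (quasi-likelihood test, TMM, two-sided) in R 4.3.3, with 6 samples per pair of groups and 12 per interaction. Benjamini-Hochberg adjustment ran over all genes with a count in the fit, and an adjusted p below 0.05 was called. TGFA was tested on the second table, so the second table among its alternatives repeats its main fit. Alternatives were RLE scaling, DESeq2 1.42.0, a filter on low counts (filterByExpr), a joint fit of all 24 samples, a block for the replicate number, the second table, omission of each sample in turn, and limma 3.58.1 on log2(value + 1) or log2(value + 0.1) of the second table. Dividing levels by the canonical transcript was added after seeing the data. The fits were tested on simulated data with 200 changed genes. Gene positions came from GENCODE 44. Same-numbered samples deviated together (every r above 0.1) in 2 comparisons only, the lines under oxaliplatin (r 0.141, 0.188 and 0.253) and oxaliplatin with doxycycline in oxpl-R cells (r 0.419, 0.48 and 0.529). Oxaliplatin in oxpl-R cells missed this cut with r of 0.0839, 0.465 and 0.547. The pairing was taken from the numbers in the labels, which do not by themselves show that samples were paired.

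The text names the 8 genes, for a change in a list only genes among the 2 largest and 2 smallest log2FC called in a comparison, and for likeness up to 3 genes with the highest r. Scarce family genes, markers and genes near AREG were named by level or position, chosen after their values were seen. The members and lists were chosen with earlier results of these data known.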

Additional observations from a re-analysis of the deposited data

Results flagged for a closer look

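The AREG samples lay on opposite sides of their controls under oxaliplatin in the 2 lines. All 3 treated HCT116 samples were below all 3 controls and all 3 treated oxpl-R samples were above all 3 controls. By edgeR the log2FC was -0.46 ± 0.14 SE in HCT116 cells (adjusted p = 0.0373, past the threshold in 9 of 14 alternatives) and 0.38 ± 0.18 SE in oxpl-R cells, which did not pass (adjusted p = 0.338). The difference between the responses was 0.86 ± 0.23 SE on the log2 scale and missed the threshold of edgeR's test over the 12 samples (adjusted p = 0.0546). It was positive under all 20 alternatives, between 0.76 and 0.93, and past the threshold under 8 of them, with adjusted p values from 0.00469 to 0.178.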

How the results depend on the processing

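Of the 25 log2FC values called among the 8 genes, 11 were past the threshold under every alternative. Of their 350 alternative values 279 stayed past it, 71 did not and 0 changed sign. For each TGFA call these values include the second table, which repeats its main fit and could not change the call. RLE scaling left 1 of the 8 genes called between the lines under both treatments, as did the second table (2 in the report), and 1 gene of the whole table for the treatment interaction in HCT116 cells. DESeq2 called 19 genes for doxycycline under oxaliplatin in HCT116 cells, and in oxpl-R cells 1099 for oxaliplatin, 72 for doxycycline, 190 for doxycycline under oxaliplatin and 599 for oxaliplatin with doxycycline. For the line differences in response it called 1303 genes (oxaliplatin, 1 of the 8) and 10 (doxycycline), and for the treatment interaction 14 in HCT116 and 10 in oxpl-R cells. filterByExpr gave 932 genes for doxycycline in HCT116 cells, 7 in oxpl-R cells, 36 for doxycycline under oxaliplatin in oxpl-R cells and 848 for the oxaliplatin response difference (1 of the 8). All 24 samples in one fit gave 2747 genes between the untreated lines, 84 for doxycycline (0 of the 8) and 17 for doxycycline under oxaliplatin in HCT116 cells, 1188, 44, 270 and 545 for oxaliplatin, doxycycline, doxycycline under oxaliplatin and oxaliplatin with doxycycline in oxpl-R cells, and 2 and 7 for the treatment interaction in HCT116 and oxpl-R cells. In that fit 3 of the 8 genes were called for oxaliplatin in HCT116 cells, with 3375 of all genes, and 1 for the oxaliplatin response difference, with 540. The second table gave 1008 genes for doxycycline in HCT116 cells, 666 and 1 for the response differences to oxaliplatin (1 of the 8) and doxycycline, and 1 for the treatment interaction in oxpl-R cells. limma gave 185 or 195 genes for doxycycline in HCT116 cells, 54 or 55 for doxycycline under oxaliplatin in oxpl-R cells, 755 or 742 (1 of the 8) and 1 or 1 for the response differences. ERBB3 had the opposite sign in the second table, with a log2FC of 0.396 for oxaliplatin and 0.0195 for doxycycline in HCT116 cells (limma 0.3957 or 0.3961 and 0.0186) and 0.0295 for doxycycline in oxpl-R cells (limma 0.0267). EREG between the lines under both treatments was -0.0491 by limma. The cause of these changes was not tested.

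The replicate numbers are shared numbers only and do not by themselves show paired samples. This holds also for the 2 comparisons in which same-numbered samples deviated together. With the replicate number as a block, 2 of the 8 genes and 2000 of all genes were called for oxaliplatin in HCT116 cells, 1 and 121 for doxycycline there, and 0 of all genes for doxycycline under oxaliplatin. In oxpl-R cells the block gave 1762 genes for oxaliplatin, 22 for doxycycline, 217 for doxycycline under oxaliplatin, 1766 for oxaliplatin with doxycycline and 10 for the treatment interaction. EREG between the lines was -0.0465 under oxaliplatin and -0.0266 under both treatments with the block. Within the 2 comparisons in which same-numbered samples deviated together, the block changed no other call of the 8 genes than that of BTC.

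Leaving out each sample in turn, the 8 genes called ranged from 1 to 3 between the lines under oxaliplatin, 2 to 6 with doxycycline and 1 to 2 with both. They ranged from 2 to 6 for oxaliplatin, 1 to 4 for doxycycline and 1 to 3 for oxaliplatin with doxycycline in HCT116 cells, from 0 to 2 and 0 to 1 for oxaliplatin without and with doxycycline in oxpl-R cells, and from 0 to 2 for the oxaliplatin response difference. All genes called ranged from 1407 to 4278 between the lines with doxycycline and 1877 to 3544 with both treatments. In HCT116 cells they ranged from 1575 to 6997 for oxaliplatin, 376 to 2305 for doxycycline, 1 to 4 for doxycycline under oxaliplatin and 405 to 4864 for oxaliplatin with doxycycline, and in oxpl-R cells from 389 to 1013, 2 to 22, 119 to 390 and 199 to 1120. The response differences ranged from 127 to 1567 genes (oxaliplatin) and 2 to 7 (doxycycline), and the treatment interactions from 0 to 527 in HCT116 and 0 to 2 in oxpl-R cells. EREG between the lines ranged from -0.25 to 0.32 under oxaliplatin and -0.27 to 0.34 with both treatments, and its doxycycline response difference from -0.0655 to 0.25. ERBB3 ranged from -0.14 to 0.0581 between the lines with doxycycline and from -0.0853 to 0.0655 for doxycycline in oxpl-R cells, where BTC ranged from -0.48 to 0.0162. A p that misses the threshold with 3 samples per group does not show that a gene was at the same level in both groups.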

Other observations

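Genes of p53, the transcription factor that DNA damage activates, were counted from a list of 8 that the text has not yet described. In untreated oxpl-R cells 8 of 8 were higher than in untreated HCT116 cells, against 28.3% of all genes called, with a median log2FC of 0.88 against 0.08 for all genes. GDF15, a stress-induced cytokine, had a log2FC of 2.84 ± 0.14 SE and CDKN1A, the CDK inhibitor p21, one of 1.98 ± 0.11 SE. With oxaliplatin 6 of 8 rose in HCT116 cells (median log2FC 2.36, 23.3% of all genes called) and 8 of 8 in oxpl-R cells (median log2FC 1.89, 4.12% of all genes called). These shares were 44.2% without HCT116 oxaliplatin replicate 3 and 4.65% without oxpl-R oxaliplatin replicate 1. The list was counted only with these libraries, which stand apart. With doxycycline 1 of 8 rose in HCT116 cells, where 9.5% of all genes were called, and 0 of 8 in oxpl-R cells, where 0.0755% were.

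Of 8 targets of E2F, the factor that RB holds back and E1A is known to release, 6 fell and 0 rose with oxaliplatin in oxpl-R cells (median log2FC -1.64, 4.12% of all genes called). In HCT116 cells 3 fell and 1 rose (median log2FC -0.10, 23.3% of all genes called), and the interaction called 4 of 8, all lower in the oxpl-R response, against 2.44% of all genes. With doxycycline added to oxaliplatin, 5 of 8 rose in oxpl-R cells (median log2FC 1.29, 0.638% of all genes called). In HCT116 cells that comparison called 0.0246% of all genes and 0 of the 8, and the difference between the lines was not tested. With doxycycline alone 1 of 8 rose in HCT116 cells (median log2FC 0.03, 9.5% of all genes called). In oxpl-R cells doxycycline alone called 0 of 8 (median log2FC 0.15, 0.0755% of all genes called). The interaction of the treatments in oxpl-R cells called 0 of 8 (median log2FC 1.13), against 0.0% of all genes. Apart from doxycycline alone, all these counts of E2F targets include oxpl-R oxaliplatin replicate 1, HCT116 oxaliplatin replicate 3 or both. These libraries stand apart, and the list was not counted without them.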
